A study of Mus musculus with 63 samples.

Results

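The genes described here encode the calmodulin-dependent kinases, the calmodulins and neurogranin of single neurons in layer 2/3 of the primary visual cortex (V1). They are 9 of the 20183 genes of the deposited table and were chosen by symbol: Calm2 and Calm3 (calmodulin), Nrgn (neurogranin), Camk2a, Camk2b, Camk2d and Camk2g (the 4 subunits of CaMKII), Camkk2 and Camk4. All cells came from wild type C57BL/6 mice aged 70 days, which the study's methods describe as male and lightly anesthetized, and the soma of each cell was drawn into a pipette in the living cortex after its calcium signal had been recorded. The light-sensitive (LS) cells had answered at least 4 of 5 drifting gratings and the non-light-sensitive (NS) cells at most 1. The RNA of each soma was amplified by Smart-seq2, which copies full-length transcripts of a cell into cDNA. Of the 46 LS and 17 NS cells, 35 LS and 12 NS cells passed the filters stated by the study, fewer than the study kept. The labels do not say which mouse a cell came from, so each group was treated as 1 sample, no test between groups was made, and each SD is the spread between cells.

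Calcium that enters a neuron binds calmodulin, and calcium-loaded calmodulin switches on the kinases. CaMKII is a large enzyme at synapses of the forebrain, assembled from alpha, beta, delta and gamma subunits, and its alpha subunit (Camk2a) is a known marker of excitatory neurons. CaMKK2 (Camkk2) phosphorylates and activates CaMKIV (Camk4), which acts in the nucleus on transcription. Neurogranin holds calmodulin when calcium is low and is known from the dendrites of excitatory forebrain neurons.

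Calm2 and Calm3 encode the same protein of 149 residues from different bases. The first 90 coding bases of each are shown because they let a reader see why reads of these genes can be told apart, and capitals mark the 15 positions at which they differ (GENCODE M21, GRCm38).
Calm2: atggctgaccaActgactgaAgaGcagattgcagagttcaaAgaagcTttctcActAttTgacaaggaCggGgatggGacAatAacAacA
Calm3: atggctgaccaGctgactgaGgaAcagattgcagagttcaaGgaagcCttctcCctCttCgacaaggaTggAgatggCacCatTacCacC
Over the 450 bases of the whole coding sequence, Calm2 and Calm3 were equal at 82.7% of positions, and 74 of their 78 differences lay at the third base of a codon. The longest run without a difference was 17 bases. Of all 100-base windows of the annotated transcripts, 0.72% for Calm2 and 0.12% for Calm3 also occurred in another gene. The other 7 members shared no such window with another gene.

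The depth behind these values differed between the groups. Reads on the listed genes, recovered from the steps of the FPKM values (fragments per kilobase of transcript, scaled by the reads of the cell), numbered 367289 to 2515240 in single LS cells (median 874249) and 149878 to 676516 in single NS cells (median 317884). Cells were also sorted by 4 markers: a cell was called glutamate-marked when Slc17a7 and Neurod2 together exceeded Gad1 and Gad2, GABA-marked in the opposite case, and unmarked when all 4 were at 0. This gave 30 glutamate-marked, 4 GABA-marked and 1 unmarked LS cells, and 2 glutamate-marked, 6 GABA-marked and 4 unmarked NS cells, so LS and NS cells also differed in marker class. The summed FPKM of 6 markers of neurons in general (Snap25, Syt1, Rbfox3, Tubb3, Map2, Stmn2) had a median of 724 in LS and 10.7 in NS cells, and in the 4 unmarked NS cells it was at most 83.0, with Syt1, Rbfox3 and Stmn2 at 0. In those 4 cells, 6 markers of microglia summed to 329 to 5887 FPKM, and 6 of astrocytes had a median sum of 1200. Sums of microglia markers also reached 1562 FPKM among the 4 GABA-marked LS cells (median 513) and 1511 among the glutamate-marked ones (median 98.3), and were at most 110 in GABA-marked NS cells. Astrocyte markers had medians of 225 and 72.0 FPKM in GABA-marked and glutamate-marked LS cells. The mean FPKM of 1031 odorant, vomeronasal and taste receptor genes, which neurons of V1 are not known to transcribe, reached 1 in 4 of 35 LS cells and in 9 of 12 NS cells. The part of these differences in the values below was not tested.

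**Figure D1:**
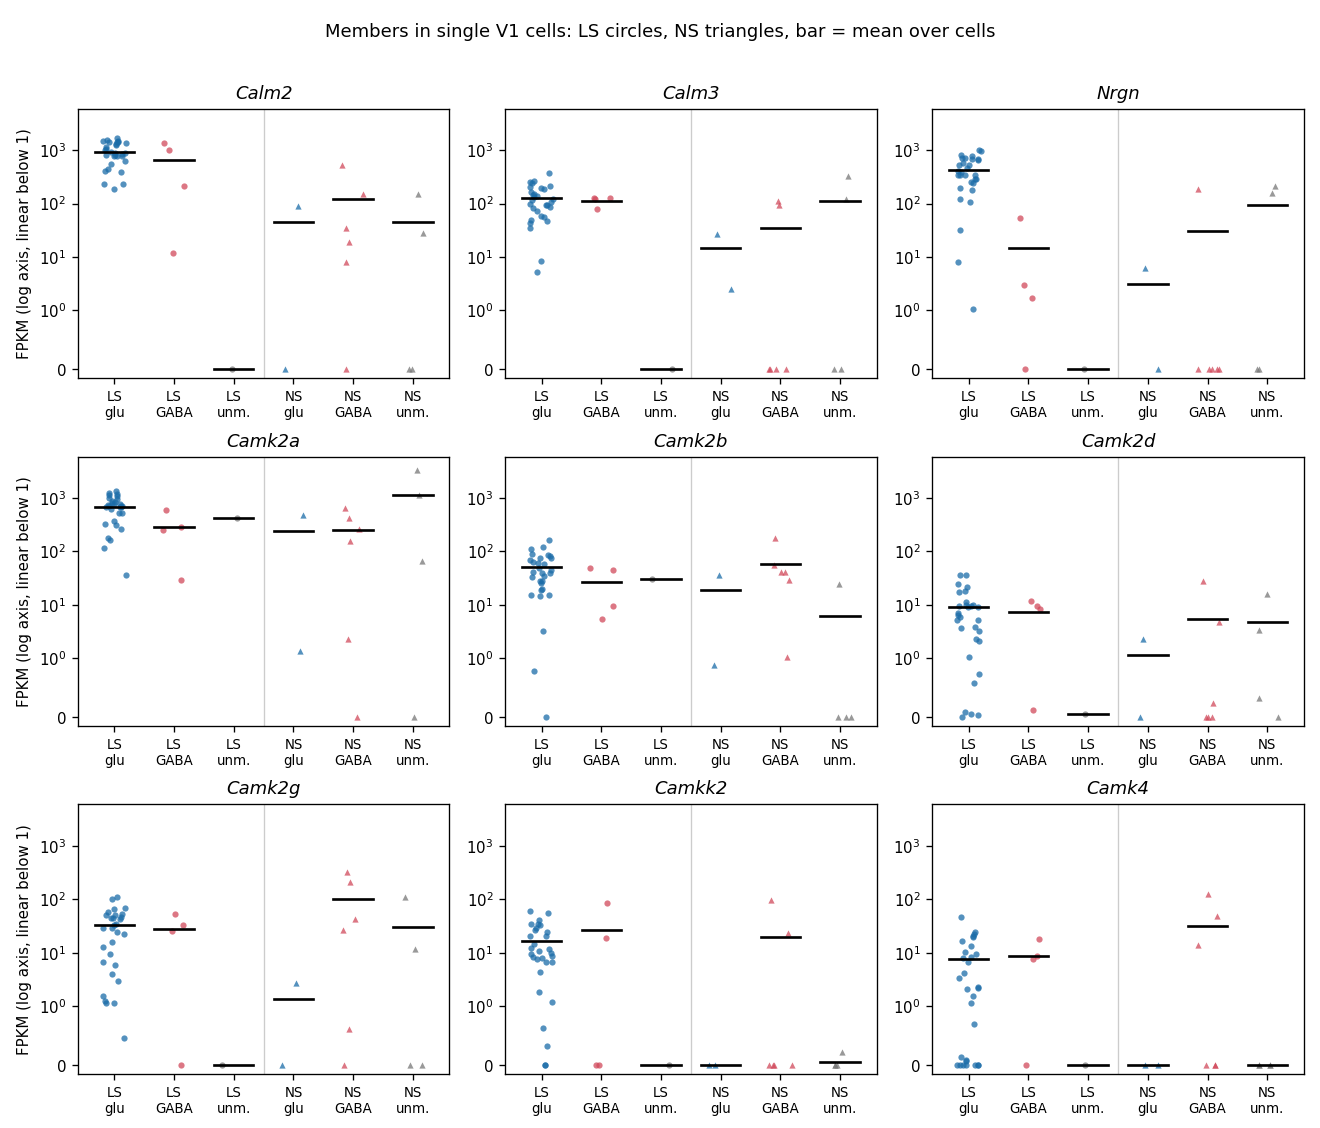
FPKM of the 9 members in each of the 47 cells, on a log axis that is linear below 1. Columns are LS and NS cells (circles and triangles) that were glutamate-marked (glu), GABA-marked or unmarked (unm.), and bars are means over cells. Calm2 is high in nearly all LS cells and low in NS cells, and Nrgn is above 100 FPKM in 27 of 30 glutamate-marked LS cells and in none of the other LS cells.

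Compared as groups, LS cells had a mean at least 2-fold that of NS cells for 3 of the 9 members (Calm2, Nrgn and Calm3) and a mean at least 2-fold lower for 1 member, Camk4. Among all 16760 genes with a mean of at least 1 FPKM in either group, 33.8% were at least 2-fold higher and 38.9% at least 2-fold lower in LS cells, so a ratio of this size was common and the count of members did not stand above it. The median log2 ratio of LS to NS was 0.81 over the members and -0.36 over all genes with a ratio.

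Calm2 (chr17:87433412-87446935, minus strand) had the largest ratio of LS to NS among the members by mean FPKM, whereas Calm3 had a larger one by medians (6.55 against 5.23) and Nrgn on means of log2(FPKM + 0.1) (7.08 against 6.28). Its level was 878 ± 479 FPKM in LS cells (SD, n = 35) with a median of 870 and a range from 0 to 1700 FPKM. In the 12 NS cells it was 83.5 ± 150 FPKM with a median of 23.2. The NS values were 526.2 FPKM in NS_12, 150 in NS_7, 148 in NS_14, 88.6 in NS_9, 34.5 in NS_6, 27.8 in NS_4, 18.6 in NS_16 and 8.16 in NS_11, and the other 4 cells were at 0. The ranges overlapped, but 26 of the 35 LS cells lay above every NS cell, and no NS cell reached the LS median. The log2 ratio of the means was 3.39, and it lay between 3.27 and 4.34 with each cell left out in turn. It was at the percentile 92.2 of the 14473 genes with a ratio, which leaves out genes at 0 in either group. It was 2.34 when all 63 cells entered, 3.22 from pooled reads (95% interval for counting error 3.11 to 3.32), and 4.07 among the 31 LS and 3 NS cells in which the receptor genes stayed under 1 FPKM.

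Among cells of the same marker class, Calm2 also had a higher mean in LS cells. GABA-marked LS cells had 1382, 1001, 214 and 12.01 FPKM, and the 6 GABA-marked NS cells had a mean of 123 ± 205 FPKM, which gave a log2 ratio of 2.41. Of the 4 LS cells 2 lay above all 6 NS cells, and the lowest, LS_9, lay below 4 of them. The 2 glutamate-marked NS cells had 88.6 and 0 FPKM, and all 30 glutamate-marked LS cells, at 188 to 1700 FPKM, lay above both. By marker class within LS cells the ratio was small, at 938 ± 435 FPKM (n = 30) in glutamate-marked and 652 ± 647 FPKM (n = 4) in GABA-marked cells.

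Calm3 (chr7:16915379-16924114, minus strand) was measured at 123 ± 81.9 FPKM over the LS cells, between 0 and 370, and at 56.7 ± 96.8 FPKM over the NS cells. A total of 6 NS cells were at 0, and 1 NS cell, NS_4, had 324 FPKM, or 47.6% of the summed NS level. The log2 ratio of LS to NS was 1.12 and 1.92 without NS_4. It fell short of 2-fold over all 63 cells (0.69), with receptor genes under 1 FPKM (0.68), from pooled reads (0.90) and in thinned cells (0.66). Only 1 LS cell lay above every NS cell. By marker class within LS cells Calm3 differed by less than the spread between cells, at 128 ± 85.1 FPKM in the 30 glutamate-marked and 113 ± 22.6 FPKM in the 4 GABA-marked cells, which held 79.8, 119.5, 125.4 and 128.2 FPKM.

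Nrgn (chr9:37544492-37552904, minus strand) differed both between LS and NS cells and between marker classes within LS cells. LS cells had 372 ± 298 FPKM of it and NS cells 47.2 ± 85.0 FPKM, and this log2 ratio of 2.98 was at the percentile 90.1 of the genes with a ratio. Of the 12 NS cells 8 were at 0, and the other 4 had 216 FPKM in NS_4, 185 in NS_7, 158 in NS_14 and 6.27 in NS_8. A total of 23 LS cells lay above every NS cell. With each cell left out in turn the log2 ratio lay between 2.86 and 3.55, it was 2.20 over all 63 cells, and among the 31 LS and 3 NS cells with receptor genes under 1 FPKM it was 2.92.

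Within LS cells, the 30 glutamate-marked cells had 433 ± 279 FPKM of Nrgn with a median of 364, and the 4 GABA-marked cells had 52.7, 3.03, 1.69 and 0 FPKM. The log2 ratio of the means was 4.91, or 30.2-fold, and it was 4.50 to 8.10 with each cell left out. A total of 27 of the 30 glutamate-marked cells lay above all 4 GABA-marked cells, and the 3 exceptions were LS_4 with 1.05, LS_41 with 7.91 and LS_13 with 31.6 FPKM. LS_41 was glutamate-marked by only 1.33 FPKM of Slc17a7 and Neurod2 together, and LS_4 held 4.30 FPKM of GABA markers beside 16.1 of glutamate markers. LS_39, the GABA-marked cell with 52.7 FPKM, was marked by 9.25 FPKM of Gad1 alone. In the whole set of marked cells the ratio was 4.06 (32 against 10 cells).

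Nrgn did not show the same order among GABA-marked cells, where NS_7 alone held reads of it among 6 NS cells. The log2 ratio of the means of GABA-marked LS to NS cells was -1.11. From pooled reads, a separate measure, it was -0.35 with an interval for counting error from -0.86 to 0.16. The level in the 4 unmarked NS cells was 93.7 ± 111 FPKM, from NS_4 and NS_14.

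**Figure D2:**
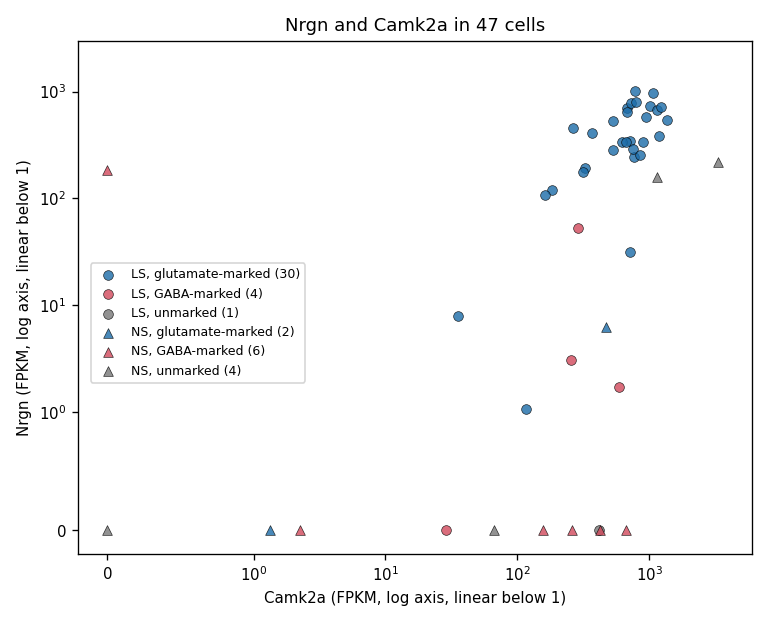
Nrgn against Camk2a in each of the 47 cells, both in FPKM on log axes that are linear below 1, with LS cells as circles and NS cells as triangles and the marker class by colour. Most glutamate-marked LS cells are at the upper right, GABA-marked LS cells have Camk2a with at most 52.7 FPKM of Nrgn, and the unmarked cells NS_4 and NS_14 have both genes.

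Camk2a (chr18:60925618-60988152, plus strand) had the highest level of the 4 CaMKII subunit genes, and its means in LS and NS cells differed by less than the spread between cells. It was 630 ± 354 FPKM in LS cells, with reads in all 35, a median of 682 and a range from 28.7 to 1356 FPKM. In NS cells it was 543 ± 941 FPKM, but the median was 208, and the cells ran from 3318 FPKM in NS_4 and 1150 in NS_14 through 663 in NS_16, 472 in NS_8, 425 in NS_11, 259 in NS_12, 156 in NS_13 and 66.5 in NS_2 to 2.26 in NS_6, 1.34 in NS_9 and 0 in the other 2. NS_4 alone held 50.9% of the summed NS level. LS over NS was 0.21 on the log2 scale, and it became 1.12 without NS_4, 1.72 from medians over cells and -0.34 when every cell was thinned to 200000 reads (35 and 8 cells). The sign of this ratio thus turned with the setting.

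By marker class, Camk2a had 682 ± 348 FPKM in the 30 glutamate-marked LS cells and 292 ± 232 FPKM in the 4 GABA-marked ones, a log2 ratio of 1.23. The GABA-marked LS cells held 594, 287, 257 and 28.7 FPKM, so reads of this marker of excitatory neurons were present in every one of them, and 20 glutamate-marked cells lay above all 4. The ratio was between 0.85 and 1.84 with each cell left out. The 6 GABA-marked NS cells, at 251 ± 258 FPKM, and the 4 GABA-marked LS cells overlapped over most of their range.

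Camk2b (chr11:5969644-6066362, minus strand), the beta subunit, which binds actin, averaged 46.97 ± 37.02 FPKM over LS cells, with a range from 0 to 166, and 34.3 ± 50.4 FPKM over NS cells. The NS values were 181 FPKM in NS_11, 56.1 in NS_12, 41.3 in both NS_6 and NS_7, 36.3 in NS_8, 29.7 in NS_13, 24.6 in NS_2, 1.05 in NS_16, 0.88 in NS_9 and 0 in the other 3. The log2 ratio was 0.45, and 1.16 without NS_11. Within LS cells it was 50.2 ± 38.4 FPKM in glutamate-marked and 27.04 ± 22.6 FPKM in GABA-marked cells, a log2 ratio of 0.89, and the ranges overlapped.

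Camk2g (chr14:20734875-20794088, minus strand), the gamma subunit, was one of 2 members with a higher mean in NS cells. LS cells had 31.01 ± 28.6 FPKM, from 0 to 112, and NS cells 60.3 ± 104 FPKM. The NS cells with the highest levels were NS_6 with 321, NS_12 with 211 and NS_14 with 108 FPKM, 4 were at 0, and the NS median of 7.12 FPKM lay below the LS median of 28.9. On the log2 scale the ratio of the means was -0.96, and -0.24 without NS_6, whereas medians over cells gave 2.02 in the other direction. Among GABA-marked cells it was -1.85, since the 4 LS cells averaged 27.8 ± 21.7 FPKM and the 6 NS cells 100 ± 134, with overlapping ranges. NS_6 had 10.3 FPKM as its mean of receptor genes, and without the cells at or above 1 FPKM of them the ratio was -0.14 (3 LS and 2 NS cells).

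Camk2d (chr3:126596302-126846326, plus strand), the delta subunit, had the lowest level of the 4 subunits in FPKM, which divides by an annotated exon length of 22493 bases. LS cells averaged 8.54 ± 9.28 FPKM and NS cells 4.53 ± 8.54, which gave 0.91 as the log2 ratio, and 1.81 without NS_7. The gene had reads in all but 1 of the 35 LS cells and in 7 NS cells. Its means in glutamate-marked and GABA-marked LS cells, at 8.97 ± 9.77 and 7.47 ± 5.13 FPKM, differed by less than the spread between cells. The locus overlaps 8 other annotated genes, 1 of them on the opposite strand, and the sources used here do not say whether counting used strand.

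Camk2a made up 87.9% of the summed FPKM of the 4 CaMKII genes in LS cells and was the largest in all 35. Camk2b followed with 6.56%, Camk2g with 4.33% and Camk2d with 1.19%. In single LS cells the share of Camk2a ran from 37.9% to 99.8% with a median of 87.8%. In NS cells Camk2a was the largest in 8 of 12 cells, Camk2g in 3 and Camk2b in 1, and the pooled share of Camk2a was 84.5%. In GABA-marked NS cells it was 60.5% with 24.1% for Camk2g, against 82.4% and 7.86% in GABA-marked LS cells. With each of the 6 NS cells left out in turn, the NS share of Camk2a ran from 47.4% (without NS_16) to 70.7% and that of Camk2g from 31.9% (without NS_11) to 13.2%, where both second values are without NS_6, whose receptor genes averaged 10.3 FPKM. Summed over the 4 genes, LS cells had 716 ± 375 FPKM and NS cells 642 ± 922. The shares depend on gene length, and the deposited FPKM of Camk2g fitted 3703 bases against 6401 in the annotation used here. They were not recomputed at the annotated length.

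**Figure D3:**
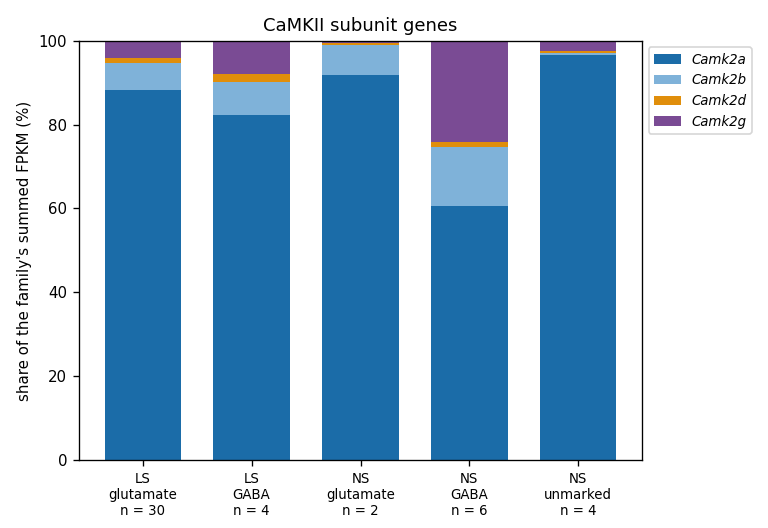
Share of each gene in the summed FPKM of the 4 CaMKII subunit genes, in percent, by group and marker class, with the number of cells under each bar. Camk2a holds the largest part in every group shown, from 60.5% in GABA-marked NS cells to 96.5% in unmarked NS cells.

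Camkk2 (chr5:122731170-122779409, minus strand), the kinase upstream of CaMKIV, was found in more LS than NS cells. Of the 35 LS cells, 30 had reads of it, or 85.7%, and of the 12 NS cells 3, or 25%. LS cells averaged 17.4 ± 19.8 FPKM and NS cells 9.93 ± 27.7. NS_12 had 95.3, NS_11 23.6 and NS_4 0.22 FPKM, so NS_12 held 80.0% of the NS sum, and the log2 ratio of 0.81 became 3.01 without it. Within LS cells the 2 GABA-marked cells with reads, LS_9 and LS_14, had 86.3 and 18.5 FPKM, and the ratio of glutamate-marked to GABA-marked cells was -0.64 with LS_9 and 1.45 without it.

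Camk4 (chr18:32934931-33191228, plus strand) was the lowest of the 9 members in glutamate-marked LS cells by deposited FPKM and the one with the largest ratio in favour of NS cells. LS cells averaged 7.41 ± 10.2 FPKM and 26 of them had reads, while NS cells averaged 15.5 ± 36.9 FPKM and 3 had reads. Those were NS_12 with 124, NS_16 with 48.5 and NS_7 with 13.9 FPKM, all GABA-marked. The log2 ratio was -1.07, but 0.39 without NS_12 and 0.67 on means of log2(FPKM + 1), so its direction rested on that cell. By class within LS cells it was 7.5 ± 10.7 FPKM in glutamate-marked and 8.61 ± 7.54 FPKM in GABA-marked cells, a difference smaller than the spread. The FPKM values of Camk4 fitted whole reads at a gene length of 12331 bases, against 3259 in the annotation used here, and those of Camk2g at 3703 against 6401, so the authors' gene models for these 2 genes differed from that annotation. The place of Camk4 as the lowest member depends on that length, and levels were not recomputed at the annotated lengths.

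**Figure D4:**
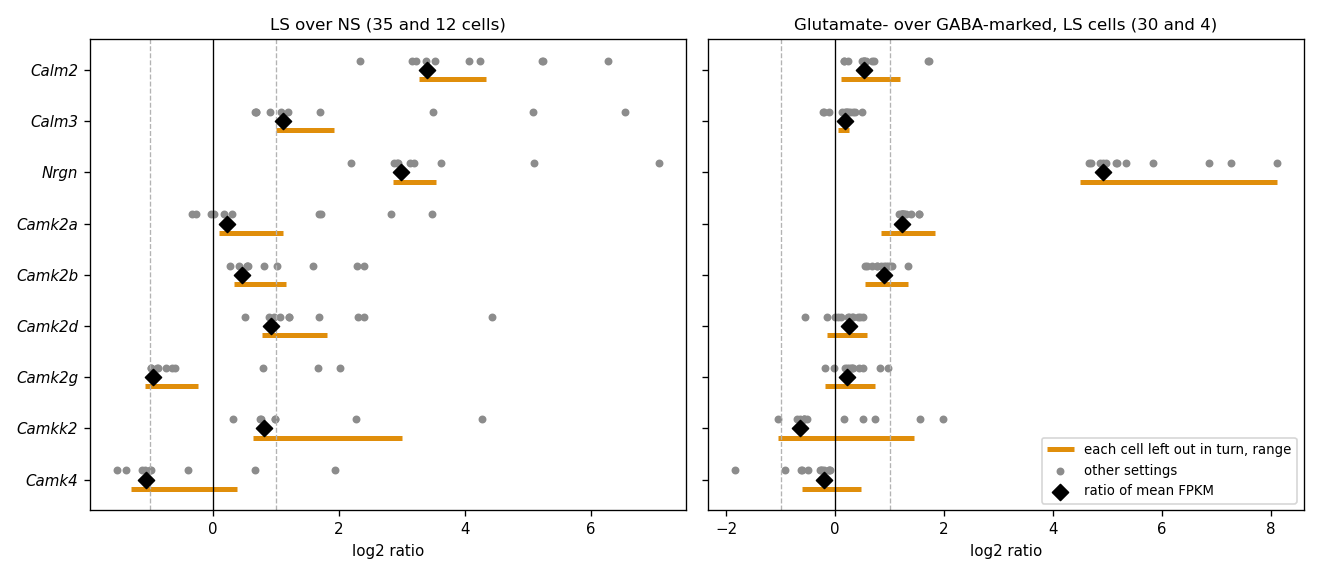
The log2 ratio of each member between LS and NS cells (left) and between glutamate-marked and GABA-marked LS cells (right). Diamonds are ratios of mean FPKM, grey points the other settings, orange bars the range with each cell left out in turn, and dashed lines a ratio of 2. Calm2 and Nrgn stay above 2 on the log2 scale on the left under every setting drawn, Nrgn stays above 4 on the right, and Camk4 and Camk2g lie on both sides of 0 on the left.

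Reads of all 9 members were present in 24 of 35 LS cells and in 0 of 12 NS cells. NS cells lacked 2 to 8 of the members, with a median of 3, and glutamate-marked LS cells 0 to 4, with a median of 0. Fewer genes of any kind were found in NS cells, with a median of 3061.5 genes above 1 FPKM against 5890 in LS cells. The part of this in the counts of members was not tested. Depth differed between the groups, so every cell was also reduced at random to 200000 reads, a depth that 4 NS cells did not reach. Then 19 of 35 LS and 0 of 8 NS cells held all 9 members. At that depth, Nrgn was present in 31 of 35 LS cells (88.6%) and 3 of 8 NS cells (37.5%), Camkk2 in 85.7% and 25%, Camk2d in 91.4% and 50%, Camk4 in 65.7% and 25%, Calm3 in 97.1% and 62.5%, and Camk2a in all cells of both groups. Before thinning the same cells gave 94.3% and 37.5% for Nrgn, 85.7% and 37.5% for Camkk2, 97.1% and 50% for Camk2d and 74.3% and 25% for Camk4.

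The order of levels was set within glutamate-marked LS cells, where group and class are constant. Calm2 was highest, followed by Camk2a, Nrgn, Calm3, Camk2b, Camk2g, Camkk2, Camk2d and Camk4, in FPKM, which is per length. The places of Camk2g and Camk4 in that order rest on the authors' gene lengths, which differed from the annotation used here. The gap between neighbours in that order was larger than the larger SD of the pair only between Nrgn and Calm3, at 304 against 279 FPKM. Within single cells each of the first 4 neighbouring pairs kept this order in 24 to 26 of 30 cells, and each of the last 4 in 19 to 21. In the median glutamate-marked LS cell, Calm2 ranked 17, Camk2a 33.5 and Nrgn 88.5 among all genes by FPKM, and 27, 26 and 18 of the 30 cells had the gene among their first 100. In the median NS cell, Camk2a ranked 311.5 and Calm2 1440.5. A gene at 0 takes the place after all genes above 0 in its cell. Nrgn had reads in 4 of 12 NS cells, so its median place of 2935 mostly reflects how many genes were found and is not set beside 88.5. Across 5 groups of cells (both marker classes of LS cells and all 3 classes of NS cells), 4 of 36 gaps between neighbouring groups exceeded the larger SD. They separated glutamate-marked from GABA-marked LS cells for Camk2a, GABA-marked LS from glutamate-marked NS cells for Camk2g, glutamate-marked LS from unmarked NS cells for Camkk2, and the same 2 groups for Nrgn.

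Marker class was compared in sets that share cells with each other. Over all marked cells (32 glutamate-marked, 10 GABA-marked), 3 members were at least 2-fold higher in glutamate-marked cells (Nrgn, Calm2 and Camk2a) and 2 at least 2-fold lower (Camk4 and Camk2g), beside 39.6% and 29% of all genes. This set mixes LS and NS cells, since 30 of the 32 glutamate-marked cells were LS and 6 of the 10 GABA-marked cells were NS. Within LS cells 2 members were at least 2-fold higher (Nrgn and Camk2a) and 0 at least 2-fold lower, beside 46.2% and 23.2% of all genes. For LS against NS among GABA-marked cells, 2 members (Calm2 and Calm3) were at least 2-fold higher and 4 (Camk4, Camk2g, Camk2b and Nrgn) at least 2-fold lower, beside 42% and 42.5% of all genes. Ratios of this size were thus common among all genes, and nothing is read from these counts about the members.

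Only 2 NS cells, NS_8 and NS_9, were glutamate-marked, and their values are given without weight on the ratio. NS_8 had 472 FPKM of Camk2a and 36.3 of Camk2b with 3 reads of Nrgn, and NS_9 had 88.6 FPKM of Calm2 with 1.34 of Camk2a. Neither held a read of Camk4 or Camkk2. The NS reads of each were therefore set to a floor of 3 over both cells. Ratios from pooled reads of the 30 glutamate-marked LS cells to this floor were 24.1-fold for Camk4 and 62.6-fold for Camkk2. The exact interval, for counting error only, started lower, at a log2 ratio of 4.29 for Camk4 and 5.67 for Camkk2. The mean of receptor genes was 11.9 FPKM in NS_8 and 5.16 FPKM in NS_9.

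The members were also compared with each other over the 30 glutamate-marked LS cells. Pearson's r of log2(FPKM + 1) was at least 0.5 for 7 of 36 pairs and below 0 for 2, with a median of 0.32. The highest values were 0.81 for Calm2 with Nrgn (Spearman's rho 0.78), 0.76 for Camk2a with Nrgn (0.63) and 0.66 for Camk2a with Calm2 (0.67). Without the 2 cells farthest from the median of the first-named gene, r was 0.71, 0.51 and 0.62 for these pairs, and it was 0.36 in place of 0.61 for Camk2b with Nrgn. Camk2d stood apart, with r between -0.23 and 0.32 with the other 8 members. These cells share differences in library and depth, so the values are a description. Number of genes above 1 FPKM had r of -0.66 with Camk2a, -0.59 with Nrgn and -0.48 with Calm2, and the glutamate marker Slc17a7 0.61, 0.61 and 0.69. The part of both in the correlations between members was not tested.

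**Figure D5:**
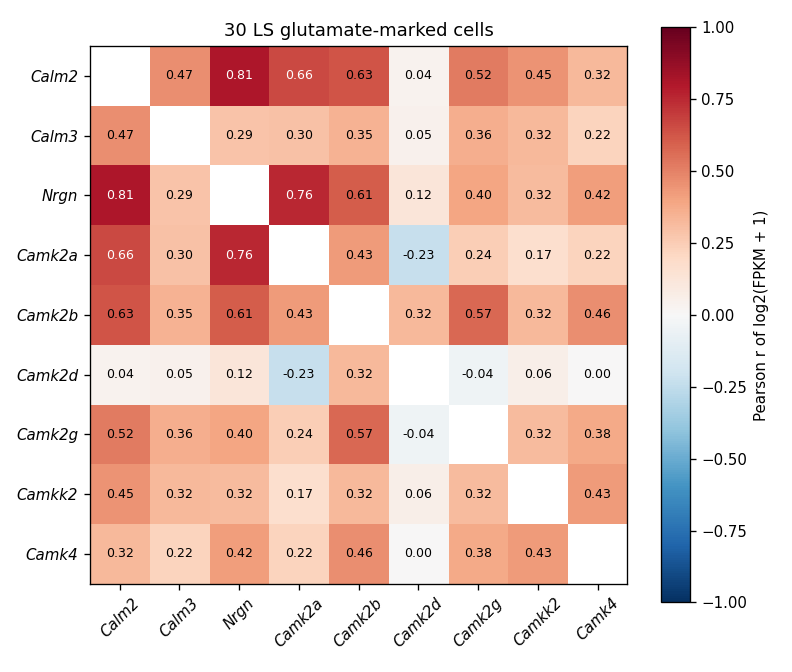
Pearson's r of log2(FPKM + 1) for each pair of members over 30 glutamate-marked LS cells. Calm2, Nrgn and Camk2a form the darkest block with r of 0.66 to 0.81, and the row of Camk2d lies between -0.23 and 0.32.

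Among 6698 genes found in at least 50% of these 30 cells, the genes whose pattern was most like that of each member were picked by the same r. For Nrgn they were Dnm1 (0.94), which encodes the vesicle fission protein dynamin 1, Stmn3 (0.92) and Tubb4a (0.89), a tubulin. For Calm2 they were Rtn1 (0.86), Hpca (0.86), which encodes the calcium sensor hippocalcin, and Tspan7 (0.85). For Camk2a they were Olfm1 (0.81), Chchd10 (0.78) and Nrgn (0.76), so Nrgn was the one member among the 3 nearest genes of another member. For Camk2b they were Car10 (0.81), Snap25 (0.79), a SNARE protein of synaptic vesicle release, and Sv2a (0.79), a synaptic vesicle protein. The nearest genes of the other members reached lower values, with Serinc1 for Calm3 (0.72), Pter for Camk2d (0.71), Araf for Camk2g (0.69), Tceal6 for Camkk2 (0.68) and Fut9 for Camk4 (0.67). Rank correlations were lower than r for every gene named here except Fut9 with Camk4 (0.68). With Camk2a they were 0.50 for Olfm1, 0.46 for Chchd10 and 0.63 for Nrgn. With Nrgn they were 0.75 for Dnm1 and Stmn3 and 0.74 for Tubb4a. They were 0.68 for Tspan7 with Calm2, 0.59 for Snap25 and Sv2a with Camk2b, and 0.52 for Serinc1 with Calm3. The median r with Nrgn over all 6698 genes was -0.01.

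A further 38 genes of calcium and calmodulin signalling were set beside the members. Between LS and NS cells, 14 of the 38 were at least 2-fold higher and 13 at least 2-fold lower in LS cells, with a median log2 ratio of 0.44, again beside 33.8% and 38.9% of all genes. The genes of calcineurin, the phosphatase that calmodulin activates, were 5 of 7 at least 2-fold higher or found in LS cells only, and 1 of 7 lower. Ppp3ca, a catalytic subunit, was at 61.0 ± 43.7 FPKM in LS against 7.46 ± 12.2 in NS cells, Ppp3cb at 17.1 and 0.95, Ppp3cc at 12.5 and 1.20, and the regulatory subunit Ppp3r1 at 63.7 and 17.8. Of the calcineurin regulators, Rcan1 was at 45.7 ± 61.2 and 185 ± 510 FPKM, Rcan2 was at 12.9 and 20.7, and Rcan3 at 2.22 FPKM in LS cells and listed at 0 in NS cells. For Rcan1, NS_4 held 80.6% of the NS sum, the log2 ratio of -2.02 was 0.22 without it, and among GABA-marked cells the gene was higher in LS cells, at 44.1 and 0.45 FPKM. The 2 genes for inhibitors of CaMKII were Camk2n1, at 86.5 FPKM for LS and 63.7 for NS cells, and Camk2n2, at 21.6 and 58.3. Of the cyclic nucleotide enzymes that calmodulin regulates, Pde1a was at 30.05 and 14.8 FPKM and Pde1b at 25.8 and 11.8, while Adcy1 was at 9.63 and 43.2, Adcy8 at 1.57 and 3.97 and Pde1c at 0.59 and 4.27. The growth-cone protein gene Gap43, which like Nrgn binds calmodulin when calcium is low, had the largest ratio in favour of LS cells, at 63.1 ± 68.9 FPKM with reads in 27 LS cells, against 1 read in all NS cells. Pcp4l1 followed at 6.12 ± 19.1 and 0.10 FPKM, with reads in 8 LS cells, 3 of them GABA-marked. Its mean was 1.48 FPKM in the 30 glutamate-marked and 42.5 in the 4 GABA-marked LS cells, so few cells carried it. The largest ratios in favour of NS cells were those of Dapk2, at 0.06 and 28.6 FPKM, Pcp4 at 0.20 and 8.11, Itpkb at 0.77 and 11.4 and Calml4 at 8.37 and 82.9. Of these, Pcp4 had reads in 1 NS cell and Dapk2 in 2, so single cells carried them.

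Within LS cells, 21 of the 34 genes that reached 1 FPKM were at least 2-fold higher in glutamate-marked than in GABA-marked cells and 5 at least 2-fold lower, with a median log2 ratio of 1.17, beside 46.2% and 23.2% of all genes. Camkv, which encodes a pseudokinase, was at 109 FPKM in the 30 glutamate-marked and 3.54 in the 4 GABA-marked cells, Crtc1, a coactivator of CREB, at 31.7 and 1.91, Dapk1 at 22.4 and 0.77, and Akap5, an anchor of calcineurin, at 7.42 and 0.48. Pcp4l1 was at 1.48 and 42.5 FPKM, Rcan3 at 1.24 and 10.1, Adcy8 at 1.11 and 5.38, and Pnck, a CaMKI isoform, at 27.8 and 97.05. The 4 GABA-marked cells set these ratios, and for all of the genes just named except Adcy8 the SD between those cells was larger than their mean. Genes listed at 0 in those 4 cells have no ratio and are outside this ranking. They include Itpka, at 64.9 FPKM in glutamate-marked cells, Camk1d at 13.3 and Calml4 at 9.76.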

How the data were processed

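Single somata were sequenced by Smart-seq2, 46 LS and 17 NS cells. The authors aligned reads to GRCm38 with STAR 2.5.3a, counted them with featureCounts and deposited FPKM values of 20183 protein-coding genes, of which 4 rows with a repeated name were left out here. No deposited counts were used, so reads were recovered from the steps of the FPKM values with GENCODE M21 exon lengths (12094 genes) or lengths solved from the values (6853 genes). Of the low values, 99.9% were whole within 0.02 of a read. On simulated data with 18947 genes for LS against NS, 63 of 63 totals came back within 0.1%, and 187 of 200 genes with a planted 4-fold ratio came back within 0.2 on the log2 scale. That ratio was taken from the simulated FPKM of all 63 cells. The simulated cells of a group differed by counting error only, so this does not measure the accuracy of ratios between cells as variable as the real ones.

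The study's filters left 47 cells. They removed 2 cells of low cDNA by name, 1 with fewer than 1000 genes above 1 FPKM, 0 with a mitochondrial share above 25%, and 10, 1 and 2 by scores of astrocytes, oligodendrocytes, and excitatory with inhibitory markers. Groups were compared by mean FPKM and its log2 ratio, among genes of at least 1 FPKM in either group. No count model or test was used, because the labels name no mouse and cells are not replicates of a condition. Batches were not examined, since no batch label is given. Intervals are exact, at 95%, and cover counting error only, as PCR reads without molecular identifiers are not independent molecules. The members, the lists of other genes and of markers, and the settings were chosen with earlier results of these data known. Named genes are all members, of the 38 other genes those of at least 5 FPKM with the 4 largest or 4 smallest ratios of a comparison and the genes of groups of at most 7, and for each member the 3 genes of highest correlation, of which the text gives 1 for some members. For marker class within LS cells, genes of at least 5 FPKM without a ratio are also named. One gene of the list is not reported here. The alternatives were all 63 cells, filter scores at 1 FPKM, cells with at least 3000 genes, cells with receptor genes under 1 FPKM, medians, means of log2(FPKM + 1) or log2(FPKM + 0.1), pooled reads, thinning to 200000 reads, TPM, 6 markers a class, a 4-fold margin between classes, and each cell left out. Leaving out cells for the CaMKII shares and for Rcan1 was added after seeing the data. Python 3.11.15, numpy 2.4.6, pandas 2.3.3, scipy 1.17.1 and matplotlib 3.10.9 were used, with the seed 11.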

Additional observations from a re-analysis of the deposited data

Results flagged for a closer look

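Chance alone meets Dixon's criterion in about 1 of 20 sets of normally distributed values. That rate need not hold here, where many values are at 0, so the count below is not read against it. By this criterion, a single cell stood far from the others of its group in 9 of 26 sets of 4 to 10 cells. Among GABA-marked LS cells this was Nrgn in LS_39, at 52.7 FPKM. Among GABA-marked NS cells it was Camk2b in NS_11 at 181 FPKM, Camk2d in NS_7 at 27.6 FPKM, Nrgn in NS_7 at 185 FPKM, and in NS_12 both Camkk2 at 95.3 FPKM and Calm2 at 526.2 FPKM. Among unmarked NS cells it was Camk2b in NS_2 at 24.6 FPKM, Camk2g in NS_14 at 108 FPKM and Camkk2 in NS_4 at 0.22 FPKM. In several of these sets most other cells were at 0, so that any cell with reads stands apart, and NS_12 is also the cell on which the direction for Camk4 rests.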

How the results depend on the processing

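No paired analysis was possible because the labels name no animal, a cell's number pairs it with no other cell, and no test between groups was made. Of the single ratios of members under the alternatives other than leaving out a cell, 46 of 476 had another sign than the reported ratio. In 12 of the 46 the reported ratio was at least 2-fold, and these are given below; the cause was not tested. The other sign changes were of ratios under 2-fold, among them LS against NS for Camk2a, at -0.28 over all 63 cells, -0.03 from pooled reads and -0.34 thinned, and for Camk2g, at 2.02 from medians and 0.79 and 1.67 on the log scales. Camkk2 by class within LS and Camk2a within GABA-marked cells changed sign in 5 of 12 alternatives each. Of ratios of at least 2-fold, LS against NS reversed for Camk4, at 0.67 on means of log2(FPKM + 1), 1.93 on means of log2(FPKM + 0.1) and 0.39 without NS_12 (-1.31 to 0.39 over all cells left out in turn). Glutamate-marked against GABA-marked reversed for Camk2g, at 0.76 with receptor genes under 1 FPKM and 0.25 on log2(FPKM + 0.1). Within GABA-marked cells LS against NS reversed for Camk2b, at 0.30 in cells with at least 3000 genes and 0.46 with receptor genes under 1 FPKM, for Camk4, at 0.21 from medians and 0.67 on log2(FPKM + 0.1), and for Nrgn, at 1.04 on log2(FPKM + 1) and 2.73 on log2(FPKM + 0.1). Within glutamate-marked cells it reversed for Camk2a, at -0.92 over all 63 cells, and Camk2d, at -0.74 with 6 markers a class.

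The counts of members at least 2-fold apart moved more. For LS against NS the 3 higher members became 2 over all 63 cells, 5 with at least 3000 genes or from medians, 7 on log2(FPKM + 1) and 9 on log2(FPKM + 0.1), and the 1 lower member became 0 under those settings, over all 63 cells and with receptor genes under 1 FPKM. For glutamate-marked against GABA-marked the 3 higher became 5 and 6 on the log scales, and the 2 lower became 1 over all 63 cells, from medians, pooled reads or thinning and 0 on the log scales or with receptor genes under 1 FPKM. Within LS the 2 higher became 4 with receptor genes under 1 FPKM or on log2(FPKM + 0.1), and the 0 lower became 1 with at least 3000 genes or from medians. Within GABA-marked cells the 2 higher became 1 with at least 3000 genes and 5 and 6 on the log scales, and the 4 lower became 2 with at least 3000 genes, pooled reads or 6 markers, 1 with receptor genes under 1 FPKM and 0 from medians or on the log scales. The 7 pairs of members with r of at least 0.5 became 4 over all LS cells. With each cell left out in turn, the counts were 2 to 5 higher and 0 to 2 lower for LS against NS, 3 to 4 and 0 to 2 by marker class, 2 to 4 and 0 to 1 by class within LS, 2 to 3 and 2 to 4 within GABA-marked cells, and 2 to 7 and 0 within glutamate-marked cells. Among other genes of the pathway, the 14 higher and 13 lower became 11 and 15 over all 63 cells. Shallower NS libraries and the 2 to 6 cells of the small classes limit every ratio.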
